A study of Capra hircus with 29 samples.

Results

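Kinesins are motor proteins that use ATP to move along microtubules, and their transcripts are described here in oocytes of the Ji'ning grey goat. Members were the rows of the deposited expression table whose gene symbol begins with KIF or KIFC followed by a number, which gave 45 of 21343 rows. They carried 42 symbols, because KIF1A, KIF5A and KIF7 each had 2 rows, and reads shared between such copies are uncertain. 1 member, KIF1BP, is a kinesin-binding protein and no motor, so 44 rows were motors. Counts of kinesins below include KIF1BP unless motors are named, and sums of FPKM leave it out.

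Most kinesins walk towards the plus end of the microtubule, whereas the C-type motors KIFC1 and KIFC3 move towards the minus end and the kinesin-13 proteins KIF2A and KIF2C take microtubules apart at their ends. Spindle kinesins push spindle poles apart, hold and align chromosomes, or build the midzone at which a cell divides. Transport kinesins carry vesicles, organelles and RNA. A mammalian oocyte rests in meiotic prophase inside its follicle and stores messenger RNA, and its meiotic spindle forms without centrioles.

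RNA of 29 oocyte samples was compared, from goats of a high and a low fertility group and from follicles of 3 size classes. The labels give more than 3 kids per birth for the high and fewer than 2 for the low group, whereas the methods of the study give limits of 3 and 2 kids with the limits included. HLO, HMO and HSO are oocytes of large, medium and small follicles of the high fertility group, with 5, 5 and 4 samples, and LLO, LMO and LSO are those of the low fertility group with 5 samples each. Granulosa cells had been removed by pipetting, and the age of the goats is not given in the sources used here. By the methods of the study, oocytes of several goats were pooled by stage, and the pool was then divided into samples of a few oocytes. The pooling is worded there for the high fertility group, and the division for the samples of both groups. Samples of a group are therefore portions of a pool and not separate animals. Which goats stand behind a sample is not recorded, so p-values measure the spread between these samples only and not that between goats.

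Levels are FPKM, that is sequenced fragments scaled to the length of the transcript and to the mapped fragments of the library. How evenly fragments cover each transcript, and how complete the gene models are, was not checked. Ratios between genes are therefore ratios of FPKM, which need not equal ratios of transcript copies. The number of reads behind a value is not held in the table, so no counting interval is given. FPKM summed over all genes lay between 222697 in LMO-2 and 490048 in HMO-1. The 10 oocyte markers in the table summed to between 1053 and 10158 FPKM, with the highest mean in ZP3 (1406 FPKM). Of these 10, 8 had a mean above 0.5 FPKM, whereas NOBOX (0.379) and NLRP5 (0.303) were low. The 10 granulosa markers summed to between 0.531 and 8.20, with AMH and AMHR2 listed at 0 in every sample. Leukocyte markers summed to at most 0.938 FPKM, endothelial markers to at most 2.33, and the markers of theca and stroma to between 5.29 and 42.6, most of it STAR (mean 18.8 FPKM) with COL1A2 at 1.73 and INSL3 listed at 0. The summed mitochondrially encoded transcripts ranged from 11.2 FPKM in LLO-4 to 5919 in HSO-3, a spread that also occurred within groups.

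Of the 45 rows, 26 exceeded 0.5 FPKM in at least 4 samples, 25 of them motors. 9 rows were listed at 0 in all 29 samples, namely KIF12, KIF18B, KIF21B, KIF25, KIF26A, both copies of KIF1A, and 1 copy each of KIF5A and KIF7. A further 10 rows (KIF13A, KIF26B, KIF21A, KIF17, KIF2B, KIF1C, KIFC2, KIF19 and the other copies of KIF5A and KIF7) were low. KIF13A had the highest mean among these 10, 0.110 FPKM, and the highest single value was 0.773 FPKM of KIF21A in LLO-2. Spindle and cytokinesis motors were the class most often present, with 12 of 14 rows passing the limit, against 9 of 19 transport rows and 4 of 11 rows of ciliary and other motors.

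The levels spanned 3 tiers. 7 kinesins had a mean above 10 FPKM, 11 lay between 1 and 10, and 8 passed the limit with a mean of 1 or less. The plot of levels by gene shows them in order. KIF20B (ENSCHIG00000012350), a motor of the kinesin-6 family that acts in the last step of cytokinesis, had 119 ± 48.8 FPKM (SD, n = 29), a mean above that of 97.5% of all rows, and it was the highest kinesin in 29 of 29 samples. Its lowest value was 55.2 FPKM, its median 107 and its highest 243.

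**Figure D1:**
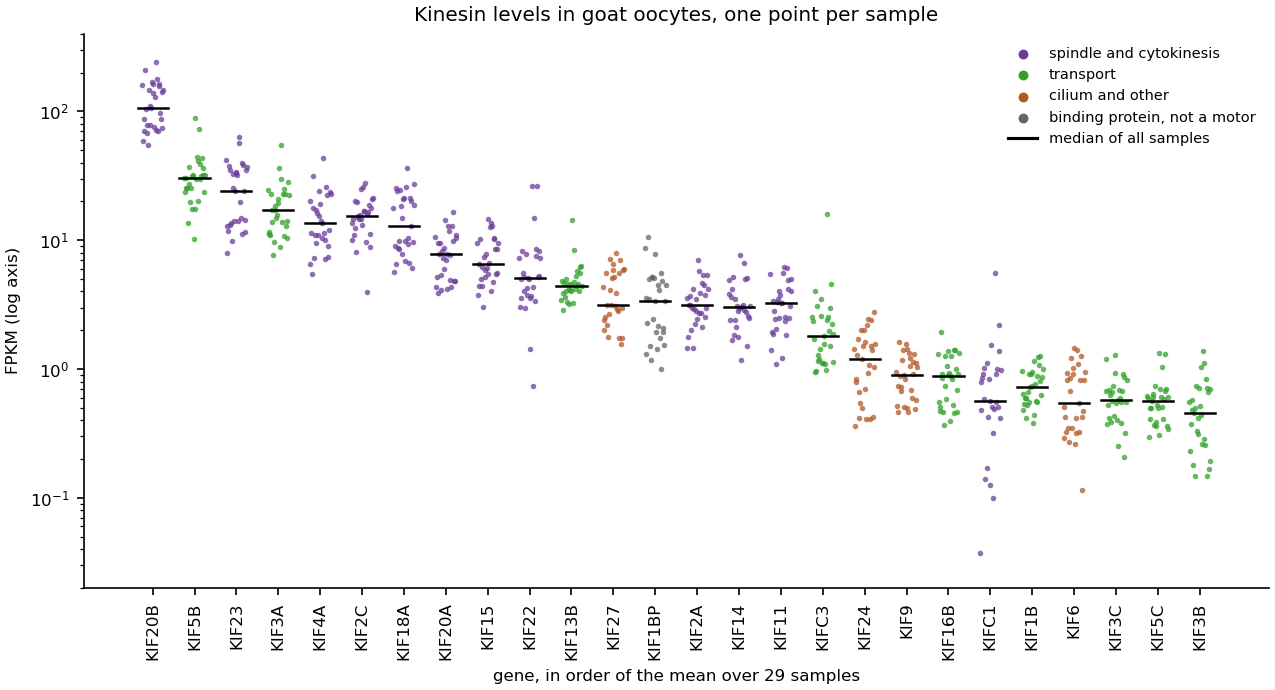
FPKM (log axis) of the 26 kinesin rows above 0.5 FPKM in at least 4 samples, in order of their mean over 29 samples. Each point is a sample, colours mark spindle, transport and other motors and the binding protein, and black lines mark medians; KIFC1 was listed at 0 in HMO-4, which a log axis cannot show. KIF20B lies above the other genes, with a median of 107 FPKM.

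KIF20B had 161, 58.7, 70.0, 86.8 and 209 FPKM in the 5 HLO samples and 140, 164, 76.0, 130 and 243 in the 5 LLO samples. In HMO its values were 104, 78.5, 67.4, 55.2 and 145 FPKM, and in LMO 71.5, 178, 70.3, 164 and 157. HSO had 110, 78.7, 107 and 170 FPKM and LSO 96.6, 87.2, 73.7, 140 and 146. The ranges overlapped in every stage, and sample number 5 was the highest of HLO, LLO, HMO, HSO and LSO.

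Below KIF20B the order was less fixed. KIF5B, the heavy chain of the conventional kinesin that carries organelles, had 32.2 ± 16 FPKM (SD, n = 29) and was the second highest kinesin in 17 samples. KIF23, the motor subunit of the centralspindlin complex of the spindle midzone, had 26.2 ± 14.4 FPKM and took that place in the other 12. Their levels differed by less than their spread, with KIF5B higher in 17 of 29 samples. KIF3A, a subunit of the heterotrimeric kinesin that serves cilia and vesicles, followed with 18.9 ± 9.82 FPKM, and KIF23 exceeded it in 24 samples.

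KIF4A, a chromosome-bound motor that also works at the midzone, had 15.7 ± 8.5 FPKM (SD, n = 29). KIF2C, which depolymerises microtubules at kinetochores and centromeres, had 15.7 ± 5.44, and it was the higher of the pair in 14 of 29 samples. KIF18A, which shortens and steadies kinetochore microtubules, had 15.4 ± 8.16. The means of these 3 neighbours in the order differed by less than their SDs over samples. Within samples KIF4A exceeded KIF18A in 19 of 29, with ratios of 0.524 to 1.51, and KIF2C was not set against KIF18A. KIF20A, a relative of KIF20B that brings the chromosomal passenger complex to the midzone, had 8.12 ± 3.42 FPKM, and KIF20B was 13.6 times higher by the median of the ratios within samples.

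Among proteins that work together or stand in for each other, the levels were unequal. KIF11 and KIF15 are both plus-end motors that keep the spindle poles apart, and KIF15 was higher in 29 of 29 samples, with 7.52 ± 3.16 against 3.29 ± 1.43 FPKM (SD, n = 29). The median ratio of KIF15 to KIF11 was 2.24 and its range 1.48 to 5.47. Of the microtubule depolymerases, KIF2C exceeded KIF2A (3.41 ± 1.33 FPKM) in 28 samples, by a median ratio of 4.43. KIF2B, another member of this family, had at most 0.0723 FPKM.

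The subunits of the transport motors differed more widely. KIF3A forms a heterotrimer with KIF3B or KIF3C and the adaptor KIFAP3, and its level was 38.1 times that of KIF3B, 26.0 times that of KIF3C and 8.04 times that of KIFAP3 by the medians of the ratios. It was the higher in 29 of 29 samples in each pair. KIF5B exceeded its paralogue KIF5C in every sample, with a median ratio of 61.6, and also KLC4, the highest of the kinesin light chains at 2.86 ± 2.73 FPKM (SD, n = 29), with a median ratio of 13.0. The means of KIF3B (0.508 FPKM), KIF5C (0.589) and KIF3C (0.616) lay near the limit of 0.5 FPKM, so their ratios are coarse. The vesicle motor KIF13B had 4.88 ± 2.14 FPKM and its paralogue KIF13A 0.110 ± 0.0863.

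Against partners at the spindle the balance varied between samples. KIF23 exceeded RACGAP1, its partner in centralspindlin, in 23 of 29 samples, with a median ratio of 1.33. KIF4A was below PRC1, the midzone bundling protein that recruits it, in 22 of 29 samples, since it was higher in only 7. CENPE, a kinetochore kinesin whose symbol lies outside the rule, had 10.3 ± 5.27 FPKM (SD, n = 29), the highest mean among the 12 rows listed as direct relatives and adaptors of kinesins, and KIF18A exceeded it in 28 samples.

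FPKM summed over the motors ranged from 155 in HMO-4 to 578 in LLO-5, with a median of 277. This was 0.0326 to 0.176% of all FPKM, and the highest share belonged to LMO-2, the sample with the lowest FPKM sum. Spindle motors made up 65.4 to 85.5% of the kinesin sum and KIF20B alone 32.6 to 48.5%. The sum was 258 ± 85.8 FPKM (SD, n = 14) in the high and 327 ± 112 (SD, n = 15) in the low fertility group, with ranges of 155 to 431 and 188 to 578 that overlapped. Summed transport motors gave 49.8 ± 10.1 and 73.5 ± 30.2 FPKM in the same order, and the highest value, 146 FPKM, came from LLO-2. No test was made of these sums.

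**Figure D2:**
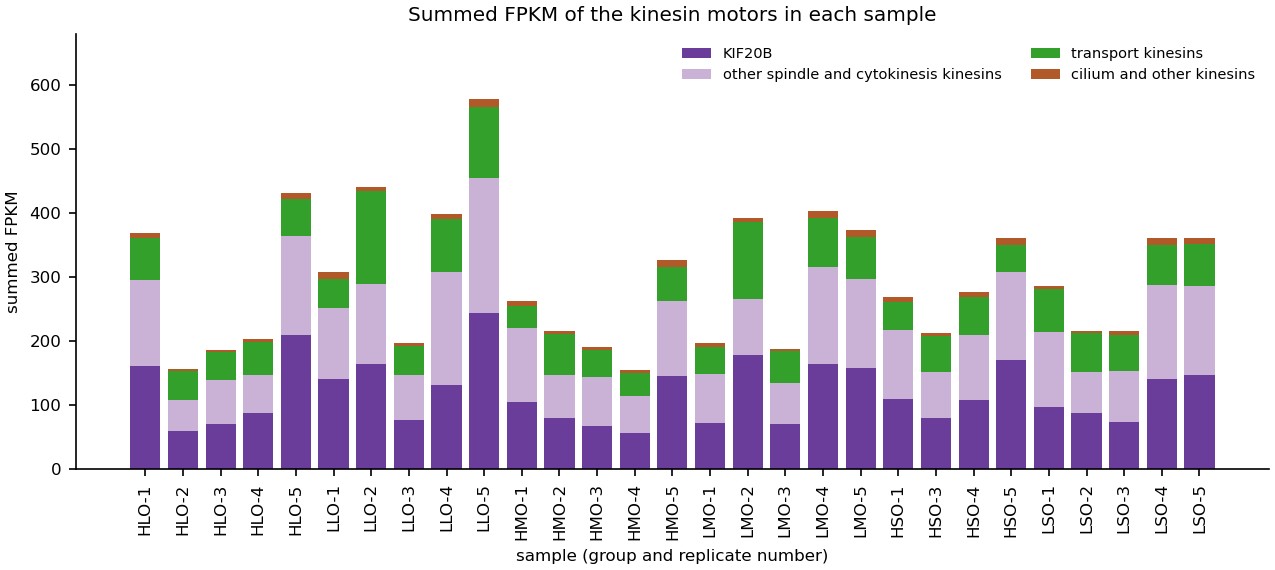
Stacked bars of summed FPKM (linear axis from 0) of the kinesin motors in each of the 29 samples, ordered by group, with KIF20B and the classes of motors in separate colours. The totals run from 155 in HMO-4 to 578 in LLO-5, and the KIF20B part is 32.6 to 48.5% of each bar.

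To ask whether kinesin transcripts differ with fertility, log2(FPKM + 1) values of both groups entered limma's moderated test, and on this scale the change of weakly expressed genes comes out too small. A gene is called here at an unadjusted p under 0.05, and adjusted values are Benjamini-Hochberg values over all genes tested. Over all stages, with stage as a covariate, 4 of 26 kinesins (15.4%) were called and all 4 were lower in the high fertility group, namely KIF5B, KIF2A, KIF15 and KIF13B. Of all 9692 genes tested 9.99% were called, 6.59% as lower, and 0 kinesins had an adjusted p under 0.05, which 0.0103% of all genes reached. The p alone does not set these 4 apart from the many other genes called.

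KIF5B (ENSCHIG00000019020) had 30.5, 23.8, 25.5, 30.4 and 25.4 FPKM in HLO, 13.6, 36.7, 27.3, 19.8 and 25.4 in HMO, and 17.4, 31.3, 32.2 and 10.3 in HSO. In the low fertility group it had 17.3, 88.5, 29.8, 44.3 and 41.2 FPKM in LLO, 20.1, 73.2, 30.0, 39.3 and 31.7 in LMO, and 43.6, 36.5, 32.1, 23.5 and 32.0 in LSO. The highest values were those of LLO-2 and LMO-2, and the fertility groups overlapped in every stage. Its mean was 25.0 ± 7.48 FPKM (SD, n = 14) in the high and 38.9 ± 19.0 (SD, n = 15) in the low fertility group, 1.56 times as high. The log2 difference was -0.57 (standard error 0.222, limma's p = 0.0155 with n = 14 and n = 15, and adjusted p = 0.436), and within stages the difference was -0.50, -0.58 and -0.64 in large, medium and small follicles.

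KIF2A (ENSCHIG00000013496), the depolymerase that sits at spindle poles, had 3.58, 1.46, 1.77, 3.16 and 3.72 FPKM in HLO against 2.44, 6.97, 2.73, 5.74 and 3.90 in LLO. In medium follicles the values were 3.12, 2.02, 2.98, 1.45 and 4.18 in HMO and 2.71, 4.69, 2.11, 5.39 and 4.49 in LMO, and in small follicles 2.92, 2.23, 3.5 and 2.84 in HSO and 3.72, 2.54, 3.0, 5.36 and 4.15 in LSO. All 6 groups spanned common values, and the means of the fertility groups were 2.78 ± 0.865 (SD, n = 14) and 4.0 ± 1.44 FPKM (SD, n = 15). The log2 difference was -0.39 (standard error 0.162, limma's p = 0.0239 with n = 14 and n = 15, and adjusted p = 0.458).

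KIF15 (ENSCHIG00000013210) had 9.49, 3.73, 4.45, 6.57 and 10.2 FPKM in HLO, 5.0, 6.21, 4.41, 3.03 and 7.46 in HMO, and 5.17, 5.86, 7.78 and 6.05 in HSO. The low fertility samples had 5.48, 14.5, 6.63, 12.6 and 13.6 FPKM in LLO, 4.01, 13.0, 4.78, 10.2 and 10.4 in LMO, and 8.49, 5.46, 5.56, 8.57 and 9.43 in LSO. The 5 highest values, of LLO-2, LLO-5, LMO-2, LLO-4 and LMO-5, were all of the low fertility group, while the lower part of both ranges was shared. The log2 difference was -0.44 (standard error 0.191, limma's p = 0.0271 with n = 14 and n = 15, and adjusted p = 0.468), and it was not called without HLO replicate 2 (-0.39, p of 0.0520) or without HMO replicate 4 (-0.39, p of 0.0503).

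KIF13B (ENSCHIG00000011751) had 3.41, 4.81, 2.88, 3.92 and 4.62 FPKM in HLO, 3.59, 4.99, 4.0, 3.33 and 4.54 in HMO, and 3.22, 4.20, 4.07 and 4.53 in HSO. In LLO it had 4.05, 14.3, 3.27, 4.77 and 8.46 FPKM, in LMO 4.15, 5.24, 4.39, 5.76 and 4.58, and in LSO 4.06, 6.14, 5.52, 6.31 and 4.44. The high fertility samples stayed at or under 4.99 FPKM, and 7 of the 15 low fertility samples lay above that. The log2 difference was -0.36 (standard error 0.154, limma's p = 0.0285 with n = 14 and n = 15, and adjusted p = 0.468), and without LLO replicate 2 it was -0.26 (p of 0.0519) and without HLO replicate 3 -0.32 (p of 0.0509), and it was called in neither.

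**Figure D3:**
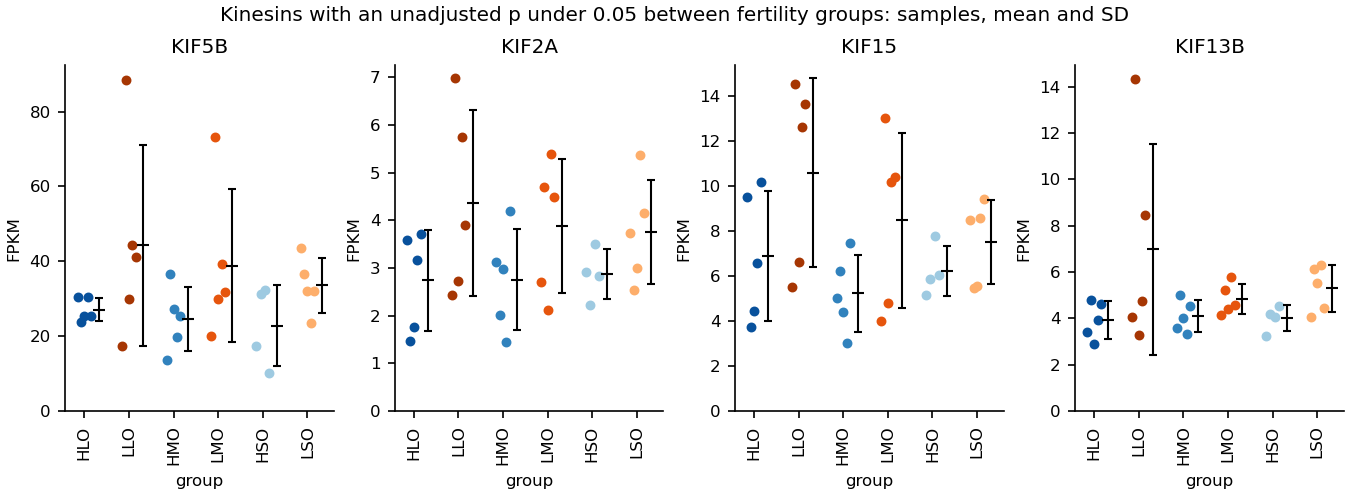
FPKM of the 4 kinesins called between the fertility groups over all stages, with a point for each sample, the group mean and the SD as error bar (n = 4 in HSO, n = 5 in the other groups), on linear axes from 0. The groups of each stage overlap for every gene, and LLO-2 gives the highest value of all 4 genes, such as 88.5 FPKM for KIF5B and 14.3 for KIF13B.

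These calls moved with the libraries and the scaling. LMO-2, LLO-2 and LSO-1 had the lowest FPKM sums and LLO-4 the lowest mitochondrial sum, and all 4 belong to the low fertility group. Without these 4 libraries 1 kinesin of 26, KIF13B, was called, against 3.65% of all genes. The difference of KIF5B was then -0.31 (limma's p = 0.140, n = 14 and n = 11), that of KIF2A -0.24 and that of KIF15 -0.27. Without LLO-2 and LLO-5, the libraries farthest out on the second principal component, KIF5B alone was called, against 6.97% of all genes. The differences were then -0.32 for KIF2A, -0.35 for KIF15 and -0.19 for KIF13B. With median-of-ratios factors KIF2A and KIF15 were again called as lower, and KIF1BP, which binds and holds back motors, was called as higher, while KIF5B at -0.47 and KIF13B at -0.27 were not called. With these factors 10.5% of all genes were called. The split of all called genes was 329 higher and 639 lower as reported, and 597 higher and 410 lower with these factors. Quantile normalization called KIF1BP, KIF15 and KIF2A (10.4% of all genes), with KIF5B at -0.59 and KIF13B at -0.29 not called. Array weights called 15 kinesins (33.8% of all genes), but not KIF5B at -0.32. The part of library quality in the kinesin differences was not tested.

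Over the whole set, 23 of 26 kinesins had a log2 difference below 0 between the fertility groups, with a median of -0.16 against -0.04 over all genes tested. With median-of-ratios factors 21 of 26 lay below 0, and the medians were -0.10 and 0.02. All 12 spindle motors lay below 0 in the main comparison, with a median of -0.27, although KIF2C at -0.05 turned to 0.045 with median-of-ratios factors. Of the other highly expressed motors, KIF3A had a difference of -0.40 (standard error 0.231), KIF23 -0.38 (standard error 0.293) and KIF20B -0.29 (standard error 0.234), none of them called. KIF1BP had 0.40 (standard error 0.249) and KIF3C 0.11. The members share samples and libraries, so these counts are a description. As every sample is a pool, a lower level per oocyte cannot be told apart from fewer oocytes that hold the transcript.

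**Figure D4:**
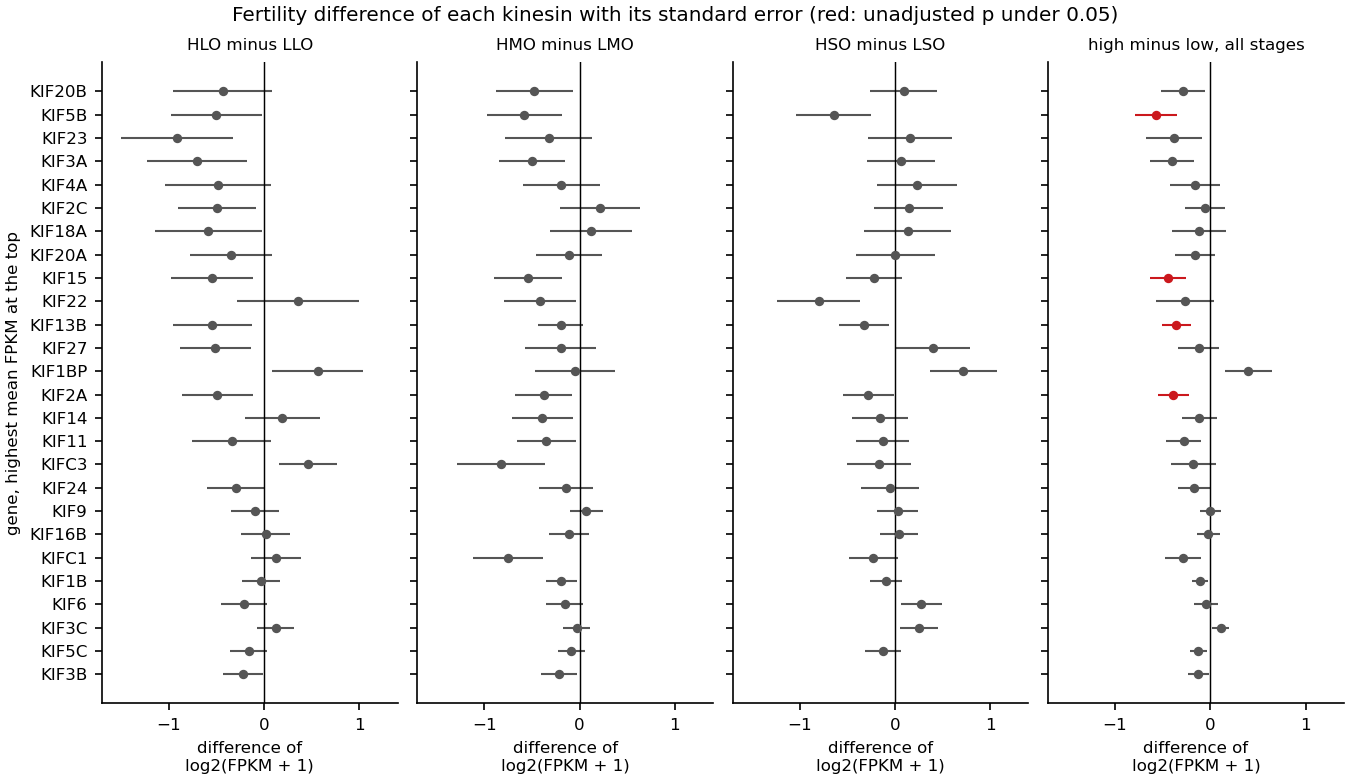
Difference of log2(FPKM + 1), high minus low fertility, for each kinesin with its standard error as a bar, in large, medium and small follicles (HLO minus LLO, HMO minus LMO, HSO minus LSO) and over all stages. Red marks an unadjusted p under 0.05, which only KIF5B, KIF15, KIF13B and KIF2A reached, all 4 in the comparison over all stages; KIF3B was not tested in small follicles.

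Within single stages 0 kinesins were called by limma in the main fits. With the sample number of the labels as a block, KIFC1 and KIFC3 were called in medium follicles, against 16.4% of all genes. KIF1BP was called in small follicles under the block, against 9.41%, and what the number marks is not given. In large follicles, where 4.14% of all genes were called, the lowest p of the 26 kinesins was that of KIF23, at -0.91 (standard error 0.585, limma's adjusted p = 0.828). The median difference was -0.32 against -0.09 over all genes, with 19 of 26 below 0. In medium follicles 8.67% of all genes were called, and the lowest p of the 26 kinesins was that of KIFC1, a minus-end motor that gathers spindle poles, at -0.75 (standard error 0.369, limma's adjusted p = 0.596). The median was -0.20 against -0.07 over all genes, and 23 of 26 lay below 0.

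In small follicles 4.41% of all genes were called and 0 of the 25 kinesins tested, the lowest p being that of KIF1BP at 0.72 (standard error 0.351, limma's adjusted p = 0.880). Here the median of the kinesins was 0.01 against -0.01 over all genes, and 12 of 25 lay below 0. HSO has no sample numbered 2. With the sample number as a block the medians were -0.06 and -0.08, and 15 of 25 lay below 0. The smaller difference in small follicles was not shown to differ from that of the other stages, since the interaction of fertility and stage gave 0 of 26 kinesins, against 7.89% of all genes, with the lowest adjusted p of 0.697 for KIFC3, a minus-end motor of vesicle transport and cell junctions. With the sample number as a block, the interaction called 2 kinesins, against 14.5% of all genes. Each of the 3 comparisons within stages shares its samples with the comparison over all stages.

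The samples of both fertility groups were also looked at for complete separation. In large and medium follicles 0 of 26 kinesins had groups that did not overlap, against 0.432 and 1.70% of all genes. In small follicles KIF22 did, which is 1 of 25 kinesins against 2.05% of all genes. KIF22, a motor that binds DNA and pushes chromosomes outwards along the spindle, had 3.76, 4.25, 5.06 and 5.02 FPKM in HSO and 26.4, 5.14, 5.32, 8.21 and 7.23 in LSO. The nearest values, 5.06 and 5.14 FPKM, lay close together, and the log2 difference of -0.80 (standard error 0.439) was not called (limma's adjusted p = 0.880). KIF22 was named after its values were seen.

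Between follicle sizes, limma's F-test with fertility as a covariate called 0 of 26 kinesins, against 1.66% of all genes, and the lowest unadjusted p was 0.337, for KIF2C. In large follicles KIF2C had 17.0 ± 6.0 FPKM (SD, n = 10), in medium ones 13.6 ± 5.0 (SD, n = 10) and in small ones 16.7 ± 5.10 (SD, n = 9). KIF20B had 134 ± 62.0, 109 ± 46.9 and 112 ± 33.2 FPKM in the same order. Such SDs leave room for differences of this size, so equal levels were not shown.

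The spread within groups was often wider than that between them, and it went with the sample number in the labels, whose meaning is not given in the sources used here. KIF18A had 5.66 to 9.80 FPKM in the 5 samples numbered 2 and 6.71 to 9.88 in the 6 samples numbered 3, but 10.4 to 24.0 in the 6 numbered 1 and 18.8 to 36.6 in the 6 numbered 5. The samples numbered 4 had 6.57 to 14.8 FPKM in the high and 21.3 to 27.2 in the low fertility group. For KIF23 the ranges were 19.9 to 41.6 FPKM for number 1, 7.98 to 31.8 for number 2, 11.1 to 14.3 for number 3, 9.79 to 56.3 for number 4 and 25.2 to 63.6 for number 5. KIF4A had 10.01 to 12.1 FPKM in number 3 and 17.2 to 43.1 in number 5. In number 4, KIF23 had 9.79 to 24.3 FPKM in the high and 35.1 to 56.3 in the low fertility group. For KIF4A and KIF5B the fertility groups overlapped in number 4.

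KIF5B did not follow that order, with 25.5 to 32.1 FPKM in number 3, 23.8 to 88.5 in number 2 and 10.3 to 41.2 in number 5. The samples numbered 3 were close to each other for all 4 of these genes, over both fertility groups and all 3 follicle sizes. These genes were chosen after their values were seen, and no test was made.

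**Figure D5:**
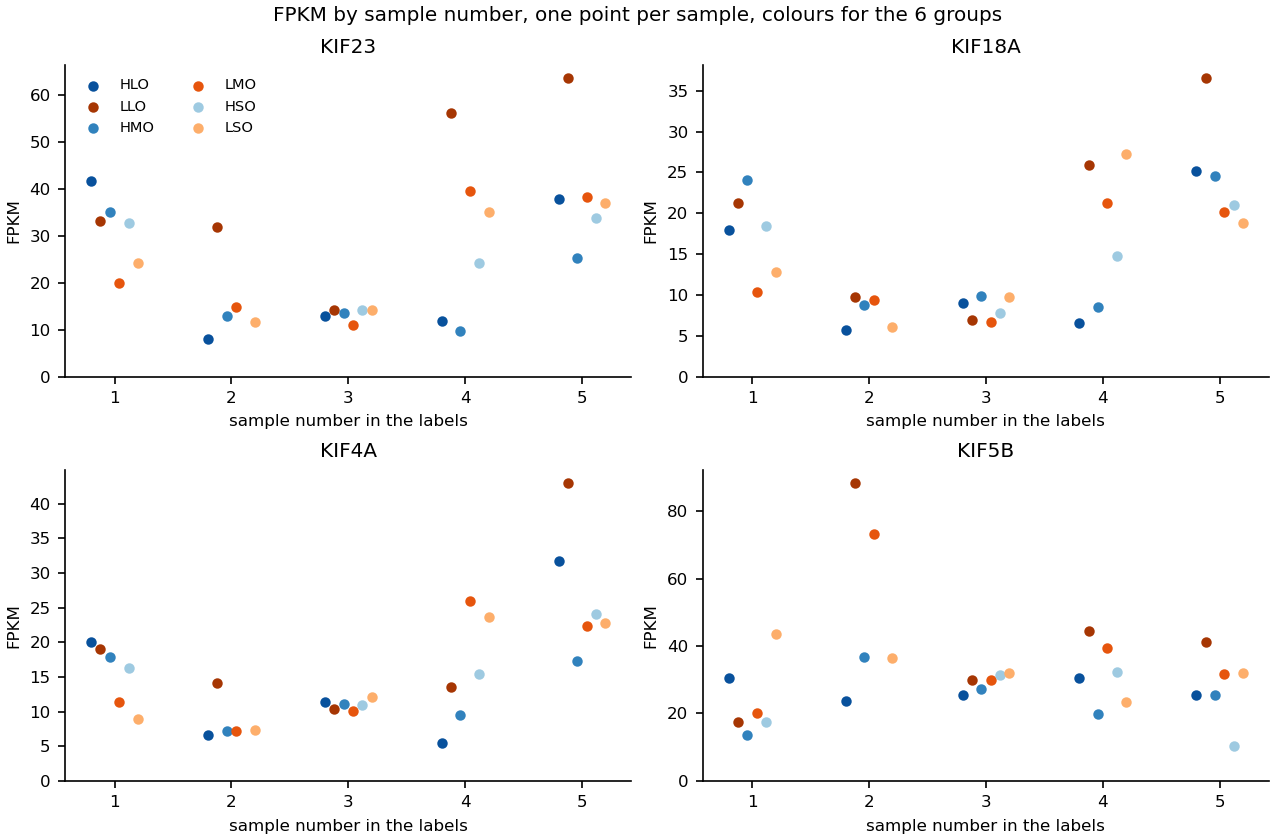
FPKM (linear axes from 0) of KIF23, KIF18A, KIF4A and KIF5B against the sample number of the labels, with a point for each of 29 samples and colours for the 6 groups. Numbers 2 and 3 hold low KIF18A values, up to 9.88 FPKM, in every group, and number 5 holds 18.8 FPKM or more, a pattern that KIF5B lacks.

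Other parts of the microtubule machinery were read from 3 lists. Of the relatives and partners of kinesins, 12 of 15 symbols were in the table and 6 passed the limit, and 1 was called, KLC4 in medium follicles, where 8.67% of all genes were called. KLC4 had 1.60 ± 0.773 FPKM in HMO and 3.02 ± 0.980 in LMO (SD, n = 5 each, log2 difference -0.64, limma's adjusted p = 0.539). Of the spindle and midzone partners, 23 of 25 rows were tested over all stages and 1 was called, CDCA8, a subunit of the chromosomal passenger complex, with 58.6 ± 13.0 FPKM (SD, n = 14) in the high and 86.7 ± 41.0 (SD, n = 15) in the low fertility group (log2 difference -0.45, limma's adjusted p = 0.492). That is 1 of 23 against 9.99% of all genes. The highest of that list was AURKA, the kinase of spindle assembly, with 1353 ± 437 FPKM (SD, n = 29).

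Dynein moves towards the minus end and needs dynactin to carry cargo. Of its 29 rows 23 were tested over all stages, and 2 were called, against 9.99% of all genes. Both were higher in the high fertility group, 1 of 3 rows of the adaptor BICD1 (ENSCHIG00000018480, mean 0.535 FPKM) with a log2 difference of 0.39 and 1 of 2 rows of the light chain DYNLL1 (ENSCHIG00000018853, mean 22.3 FPKM) with 0.64 (limma's adjusted p = 0.481 for both). The light chain DYNLT1 was called in each stage, with -1.27 in large, 1.77 in medium and -1.73 in small follicles, and in the interaction test (limma's adjusted p = 0.192). DYNLRB2 had 1.31 in medium and DYNLL2 -0.93 in small follicles, both called. These are 1 row in large, 2 in medium and 2 in small follicles, where 4.14, 8.67 and 4.41% of all genes were called. The other DYNLL1 row (ENSCHIG00000019147), which was not called, was the highest of the list with 9738 ± 3996 FPKM (SD, n = 29). Reads shared by rows of a symbol are uncertain, and no row of the 3 lists had an adjusted p under 0.05 in any of the 6 tests.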

How the data were processed

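The authors enriched mRNA of goat oocytes on oligo(dT) beads, sequenced it on an Illumina instrument, kept uniquely matching reads without duplicates and deposited FPKM per gene from Cufflinks with Ensembl annotation. The aligner and genome build are not given in the sources used here, so no coordinates are printed. A column was used where its name matched the title of a sample, which left 1 column of values unused. Groups came from the sample labels.

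FPKM were tested as log2(FPKM + 1), with a pseudocount of 1, over genes above 0.5 FPKM in at least 4 samples of the fit, by limma 3.58.1 in R 4.3.3 with a mean-variance trend and Benjamini-Hochberg adjustment over all genes tested. Large, medium and small follicles were fitted separately, and fertility over all stages, stage and their interaction over all 29 samples. The procedure was tested on simulated data. Alternatives were quantile normalization or median-of-ratios factors, pseudocounts of 0.1 and 0.5, a filter at 1 FPKM or none, limma's array weights, an exact Wilcoxon test, the replicate number as a block, 1 fit over all samples and each sample left out. Leaving out 4 and 2 libraries together was added after the data were seen.

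Values are given for the 8 kinesins of highest mean FPKM and up to 4 of lowest p among those called in each test. KIF22, KIFC1, KIFC3, KIF1BP and the pairs of partners were named after their values were seen. The members and lists were chosen with earlier results of these data known. Python 3.11.15 with numpy 2.4.6, pandas 2.3.3 and matplotlib 3.10.9 did the rest.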

Additional observations from a re-analysis of the deposited data

Results flagged for a closer look

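In groups of 4 or 5 samples, 14 kinesins were looked at for a single sample far from the others by Dixon's test at its 95% limit, which chance alone passes in about 1 in 20 groups. The 11 kinesins named by level or call gave 2 flags in 66 groups. The other 6 flags, in 18 groups, are of KIF22, KIFC1 and KIFC3, which were chosen after their values were seen, so their number is not set against chance. In LLO, KIF4A had 43.1 FPKM in LLO-5 against 10.4 to 19.0 in the others, KIF22 had 26.3 FPKM in LLO-4 against 0.736 to 3.72, and KIFC1 had 1.54 FPKM in LLO-2 against 0.10 to 0.506. In LMO, the sample LMO-2 stood apart for KIFC3 and KIFC1, with 16 FPKM of KIFC3 against 1.51 to 2.53 and 5.54 FPKM of KIFC1 against 0.486 to 0.999. KIFC2, the remaining KIFC row, was listed at 0 in LMO-2. LMO-2 also had the lowest FPKM sum of all samples, 222697, and its part in these values was not tested. In the remaining groups, KIF2C had 24.8 FPKM in HSO-5 against 14.5 to 15.7, KIF22 had 26.4 FPKM in LSO-1 against 5.14 to 8.21, and KIFC3 had 3.08 FPKM in HMO-2 against 0.972 to 1.28.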

How the results depend on the processing

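The number of kinesins called at an unadjusted p under 0.05 moved with the settings, and the cause of each move was not tested. The test was limma's except where the exact Wilcoxon test is named. The share of all genes called under the same setting is given in brackets. Between HLO and LLO the number of kinesins was 0, and became 1 without the filter (3.82%) and 2 with array weights (16.5%). With a sample left out it was 0 to 1 (1.88 to 10.6%). Between HMO and LMO it was 0, and became 1 with pseudocounts of 0.1 (8.65%) or 0.5 (8.76%) or without the filter (8.13%). It was 14 with array weights (39.8%), 2 in 1 fit over all samples (7.69%) and 0 to 1 with a sample left out (4.82 to 12.6%). Between HSO and LSO it was 0, and became 1 without the filter (KIF26B, 4.63%) or by the exact Wilcoxon test (KIF22, 4.12%). With median-of-ratios factors (5.12%) or quantile normalization (5.19%) it was also 1, namely KIF1BP, which is no motor. It was 2 with array weights (8.11%) and 0 to 1 with a sample left out (1.88 to 7.95%). Over all stages it was 4, and became 15 with array weights (33.8%) and 5 without the filter (7.98%). The number was 3, namely KIF1BP, KIF15 and KIF2A, with median-of-ratios factors (10.5%) or quantile normalization (10.4%). It was 1 (3.65%) without the 4 libraries of lowest summed FPKM (LMO-2, LLO-2, LSO-1) or mitochondrial sum (LLO-4). Without LLO-2 and LLO-5 it was 1 (6.97%), and with a sample left out 3 to 6 (7.48 to 13.8%). It was 3 without HLO-2, HLO-3, HMO-4 or LLO-2 (7.59 to 8.06%) and 6 without LLO-3 (13.3%). For the interaction it was 0, and became 1 without the filter (6.97%), 2 with array weights (16.7%) and 0 to 1 with a sample left out (6.15 to 11.6%). Of all genes, 968 were called over all stages, and between 343 and 3278 under the other settings. The F-test over stages gave 0 kinesins under every setting run. KIF2C, at -0.05 between the fertility groups, turned to 0.045 with median-of-ratios factors and to 0.076 without LLO-2 and LLO-5. With a sample left out it lay between -0.17, without LMO replicate 2, and 0.0064, without LLO replicate 5.

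Groups share replicate numbers, but nothing says what a number marks. The deviations of same-numbered samples correlated above 0.1 in 10 of 14 pairs (range -0.481 to 0.709), so part of the spread went with the number. The pairs numbered 4 had -0.048, -0.415 and -0.481 in large, medium and small follicles. As its meaning is not given, the main fits hold no term for it. Where both groups hold the same numbers, that spread stays in their error. HSO has no sample numbered 2, so in small follicles and over all stages it can also enter the differences. In small follicles the median kinesin difference was 0.01 in the main fit and -0.06 with the number as a block. Over all genes the medians were -0.01 and -0.08. With the number as a replicate block the counts were 2 between HMO and LMO (KIFC1 and KIFC3, with 16.4% of all genes called), 1 between HSO and LSO (KIF1BP, 9.41%), 7 over all stages (15.1%) and 2 for the interaction (14.5%). The 7 over all stages were KIF1BP, KIF23, KIF13B, KIF15, KIF2A, KIF5B and KIF3A.

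The table holds no counts, so low FPKM cannot be weighed by depth, and 8 kinesins with a mean of 1 FPKM or less are measured coarsely. 5 samples a group and pools of a few oocytes limit what can be called: an absent call does not show equal levels.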
